A study of Mus musculus with 7 samples.

Results

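Interferon-stimulated genes are the genes that cells switch on when an interferon binds its receptor, and 37 of them were followed here in mouse ovarian granulosa cells. They were picked by gene symbol from the deposited expression table of 50095 rows, which gave 36 of the 37. Ifit3b was found by its Ensembl ID, since the table lists it under the older symbol I830012O16Rik, so all 37 had a row. The row named Gbp5 carries an ID (ENSMUSG00000040264) that GENCODE gives to the neighbouring Gbp2b, and is called Gbp5/Gbp2b below. The 7 libraries came from granulosa cells, the somatic cells that surround the oocyte, of female mice aged 3 weeks primed with pregnant mare serum gonadotropin (5 IU) to grow follicles and, after 48 h, given human chorionic gonadotropin (5 IU) to set off ovulation. The 3 libraries labelled KO had the genotype Ezh2flox/flox; Cyp19-Cre and the 4 labelled WT had Ezh2flox/+; Cyp19-Cre. Both groups thus carried the Cre recombinase, driven by the promoter of aromatase, and at least 1 floxed allele of Ezh2, the histone methyltransferase of Polycomb repressive complex 2. WT4 carried the treatment label of the KO group but the title and genotype of WT, and was kept in WT. The labels give neither the time from the last injection to collection nor whether a library came from 1 animal or a pool, so p-values measure only the spread between these libraries. The comparison asks how the response genes differ between KO-labelled and WT libraries, where both groups carried the Cre and WT kept 1 allele of Ezh2 that was not floxed.

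Type I interferons signal through the receptor IFNAR and the kinases JAK1 and TYK2 to a complex that holds STAT2 and IRF9 and binds the interferon-stimulated response element in target promoters. Interferon gamma signals through its own receptor, JAK1 and JAK2 and acts on promoters with the gamma-activated site. The products sense viral RNA, block translation, membrane fusion or release of viruses, attack vacuoles that hold pathogens, or restrain the pathway itself. Granulosa cells and resident immune cells of the ovary can both express such genes.

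Levels are in FPKM, a read level corrected for transcript length and library size that can be compared between genes. The sum over all genes was 400522 to 450102 FPKM in KO-labelled libraries and 372085 to 390185 FPKM in WT (two-sided exact permutation p = 0.0286, the smallest that 35 splits allow). Mitochondrial transcripts made up 17.2% to 19.1% of it in KO-labelled libraries and 14.7% to 15.8% in WT. The targeted gene Ezh2 stood at 20.03, 17.8 and 26.1 FPKM in KO1 to KO3, against 20.5, 23.4, 25.2 and 25.3 FPKM in WT1 to WT4, where the top value belonged to KO3 (log2 difference -0.15, SE 0.14, adjusted p = 0.432). A whole-gene value also counts exons outside the deleted part, so the labels were not checked by it. Il1r2, the other gene chosen as a check of the labels, was not called either (log2 difference 0.09, SE 0.19, adjusted p = 0.752). It averaged 2.01 ± 0.452 FPKM in KO-labelled libraries and 1.86 ± 0.652 FPKM in WT, with overlapping groups. Each direction below follows the labels. All 13 granulosa markers examined were expressed, led by the inhibin subunit Inha at 2389 ± 315 FPKM in KO-labelled libraries and 3222 ± 389 FPKM in WT (SD, n = 3 and n = 4). The difference KO minus WT on the log2(FPKM + 1) scale was tested with limma for 13850 genes that averaged 1 FPKM or more across 7 libraries. Called means a Benjamini-Hochberg adjusted p under 0.05 over all of them. Of the genes tested 24.6% were called, 1095 higher and 2315 lower, and higher genes were 32.1% of the calls, against 48.8% with median-of-ratios scaling, 51.5% with upper-quartile scaling, 17.7% with an equal sum of FPKM and 54.1% after a correction for transcript length. The count of calls was 2022 without WT2, 1552 without WT3 and 1293 without KO1.

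Interferon-stimulated genes stood higher in KO-labelled libraries almost throughout the list. Of the 37 genes 31 passed the filter, and 27 of these rose and 0 fell, where 7.91% of all genes tested rose and 16.7% fell. The 4 not called were Ifitm2, Stat2, Irf1 and Gbp7. The median log2 difference of the 31 was 1.60, beside -0.08 for all genes tested. In 24 of the 31 every KO-labelled library lay above every WT library, and in 0 of the 31 below, which held for 11.5% and 24.8% of all genes tested. Of the 31, 12 had a WT mean under 1 FPKM and passed the filter only through their KO-labelled values, so they had to differ. These were Usp18, Ifit1, Ifit3, Ifit3b, Oas1a, Mx2, Rsad2, Irf8, Gbp3, Iigp1, Ifi44 and Xaf1. All 12 are among the 24 with separate groups, and neither that separation nor their calls below are support. Among the 19 with a WT mean of at least 1 FPKM, a split made after the data were seen, 15 rose, against 6.64% of all tested genes with such a mean. The ratio of mean FPKM, KO-labelled over WT, ran from 1.18 for Ifitm2 to 30.2 for Ifi44 with a median of 4.999, and it was at least 5 in 15 genes. Ifi27l2a and Isg15 ranked 1 and 2 of all 13850 genes by log2 difference, and 14 members were among the top 100. Among these 14 were Usp18, Ifit1, Ifit3, Oas1a, Gbp3, Iigp1, Ifi44 and Xaf1. They passed the filter only through KO-labelled values, so their ranks and ratios are no support. The 6 members under the filter were Ifit2, Oas2, Oas3, Oasl1, Mx1 and Gbp5/Gbp2b. In 3 of them, Oas2, Oasl1 and Gbp5/Gbp2b, the KO-labelled libraries lay above WT throughout, as in 5.14% of all genes with a mean under 1 FPKM. With no filter 20 of the 37 rose, against 2.24% of all 32922 genes with a value.

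**Figure D1:**
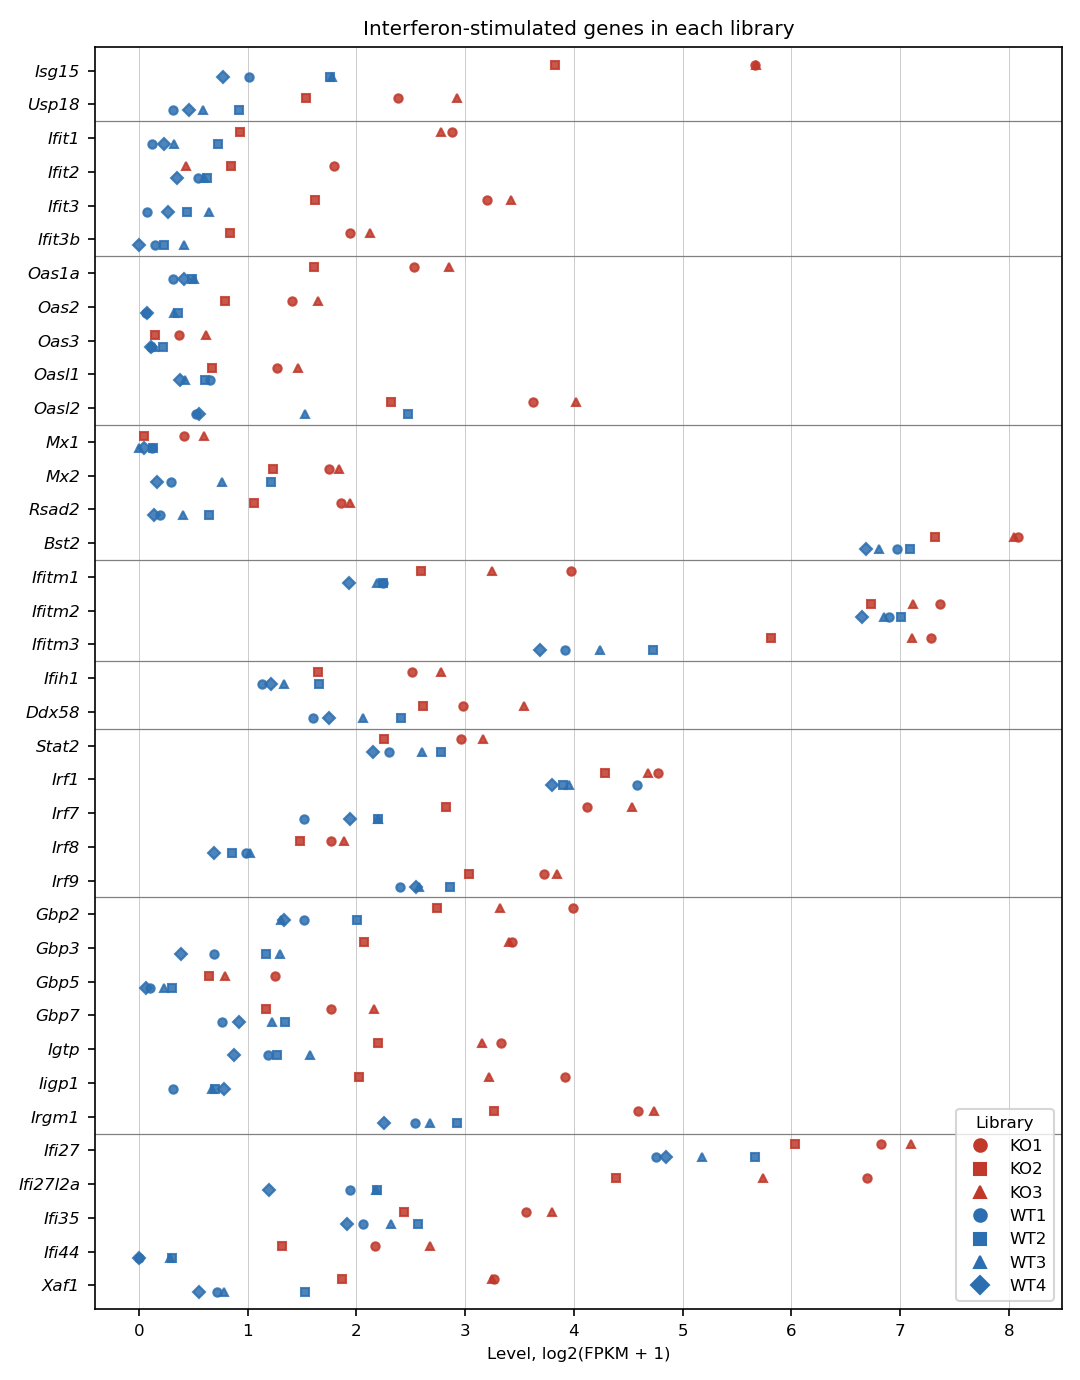
Level of each of the 37 interferon-stimulated genes in each library, as log2(FPKM + 1) on the horizontal axis, with KO-labelled libraries in red above WT libraries in blue and lines between role groups. Bst2 and Ifitm2 were the most abundant in WT, most other genes lay far below them in WT, and KO2 was the lowest KO-labelled library in all genes but Ifit2. The row marked Gbp5 is the one called Gbp5/Gbp2b in the text.

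The 3 KO-labelled libraries did not stand equally high. KO2 was the lowest of them for all 31 tested members and for 36 of all 37, the exception being Ifit2. The highest was KO3 for 19 of the 31 and KO1 for 12. In KO1 and in KO3 all 31 tested members lay above every WT library, and in KO2 24 did. These counts include the 12 members that passed the filter only through KO-labelled values. Of all genes tested 11.5% had every KO-labelled library above every WT library, and the share for single libraries was not computed. Relative to the WT mean, the median ratio over the 31 was 6.19 in KO1, 2.28 in KO2 and 5.75 in KO3. Among WT libraries WT2 was the highest for 22 of the 31, while WT4 was the lowest for 17 and WT1 for 13. The count of members that rose was 18 without KO1, 18 without KO3 and 30 without KO2. Of all genes tested 3.6%, 4.38% and 9.49% rose in those fits. The members' median log2 difference there was 1.45, 1.36 and 2.02. No tested member had a negative difference, here or in any of the 15 alternatives.

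**Figure D2:**
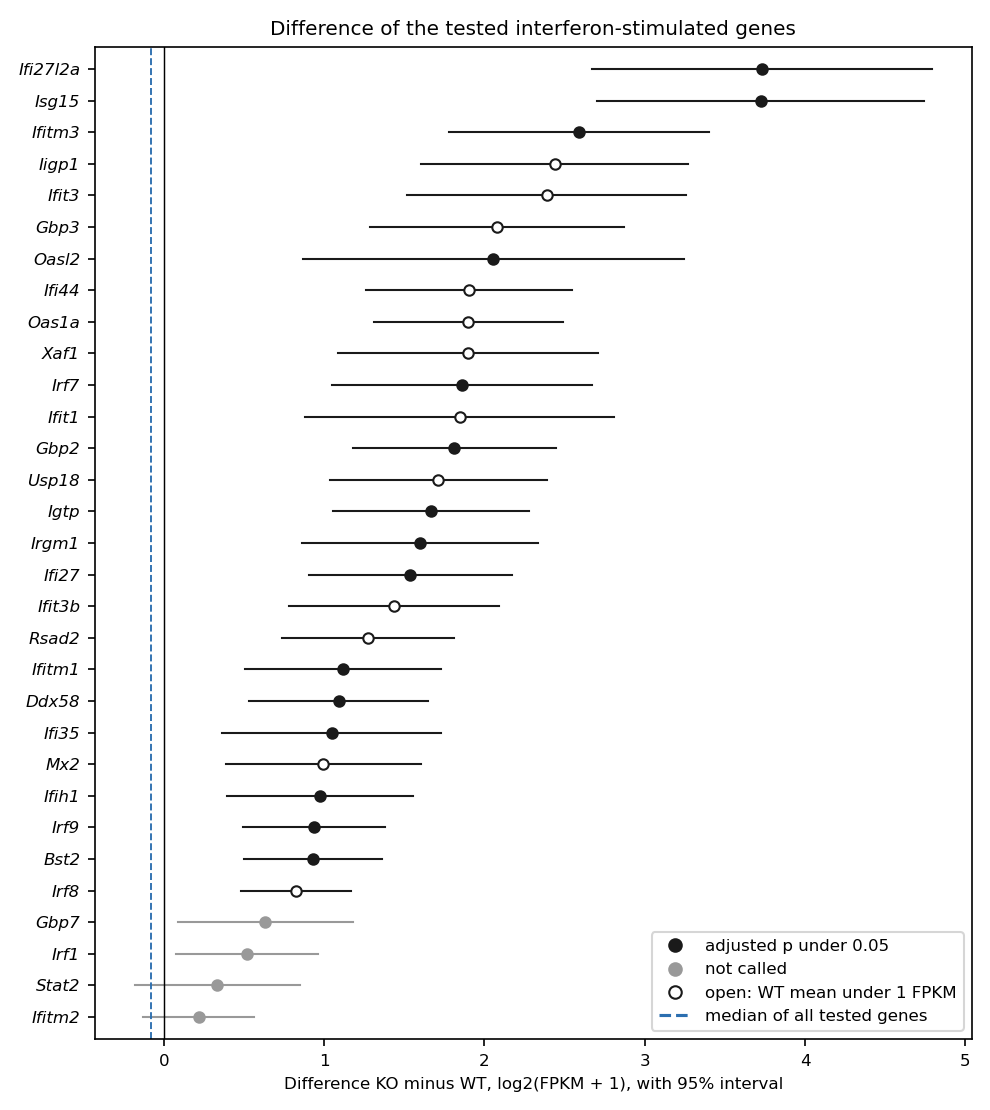
Difference KO minus WT in log2(FPKM + 1) for the 31 tested interferon-stimulated genes, points with 95% intervals from limma, black where called and grey where not, and open where the WT mean was under 1 FPKM. Every point lies right of 0, from 0.22 for Ifitm2 to 3.73 for Ifi27l2a, and the dashed line marks the median of all genes tested at -0.08.

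Promoter sequence is shown for 4 called genes with a large difference, because they hold the letters of the response element core. RefSeq promoters of the build GRCm38.p6 were matched by symbol to 29 of the 37 genes, leaving out Gbp5/Gbp2b, and the 250 bases before each annotated start were searched on both strands for a pair of GAAA blocks with any 2 bases between them. Of the 29 matched genes 15 held it (51.7%), against 3.46% of 27025 genes with a promoter in the same table. In 10 of the 15 a match began within 100 bases of the start. Of the called genes with a promoter 11 of 22 held it, and of those not called or not tested 4 of 7 did. The lines run 5′ to 3′ on the strand of the gene and end at the base before its start, with the matches in capitals.
Isg15 (chr4:156200819-156201068, minus strand): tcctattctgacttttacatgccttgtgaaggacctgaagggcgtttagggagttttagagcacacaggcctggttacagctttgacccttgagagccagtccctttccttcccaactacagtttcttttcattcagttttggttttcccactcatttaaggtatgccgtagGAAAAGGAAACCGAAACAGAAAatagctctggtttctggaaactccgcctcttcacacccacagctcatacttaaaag
Ifit3 (chr19:34583279-34583528, plus strand): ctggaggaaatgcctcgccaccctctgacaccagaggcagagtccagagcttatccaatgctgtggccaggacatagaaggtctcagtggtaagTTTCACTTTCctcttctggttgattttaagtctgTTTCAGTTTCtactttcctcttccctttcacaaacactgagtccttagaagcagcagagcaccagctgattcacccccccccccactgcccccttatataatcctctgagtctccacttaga
Gbp3 (chr3:142559794-142560043, plus strand): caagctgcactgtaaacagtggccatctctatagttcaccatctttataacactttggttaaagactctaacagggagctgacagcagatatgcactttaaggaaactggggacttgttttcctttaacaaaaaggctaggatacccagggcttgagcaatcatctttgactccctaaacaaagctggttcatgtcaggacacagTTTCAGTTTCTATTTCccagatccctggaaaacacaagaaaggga
Oas1a (chr5:120907526-120907775, minus strand): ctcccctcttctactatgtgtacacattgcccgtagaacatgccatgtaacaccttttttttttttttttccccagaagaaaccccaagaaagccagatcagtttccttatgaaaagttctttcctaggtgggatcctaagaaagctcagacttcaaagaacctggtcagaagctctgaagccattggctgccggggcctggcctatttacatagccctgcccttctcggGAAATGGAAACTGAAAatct

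Isg15 held 3 overlapping matches in 1 run that ends at base -57, counted back from the start. In Oas1a 2 overlapping matches ended at base -5, and in Gbp3 2 overlapping matches, read as the reverse complement, ended at base -30. The promoter of another annotated start of Gbp3 (chr3:142560106-142560355) held no match. Ifit3 held 2 separate matches, also as the reverse complement, the nearer ending at base -113. Its neighbours Ifit1 and Ifit3b had 2 matches with the same letters as those of Ifit3, the nearer ending at bases -76 and -145. The gamma-activated site, TTC and GAA with any 3 bases between, which reads the same on both strands, was in 7 of the 29 promoters (24.1%), against 8.13% of all genes in the table. Igtp, Bst2, Oas1a and Gbp7 held both motifs, and in Bst2 the matches overlapped. Ifitm3 rose without a match to either, and Ifitm2, which did not pass the test, held a response element core ending at base -37. A match of letters is a description and does not show binding.

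**Figure D3:**
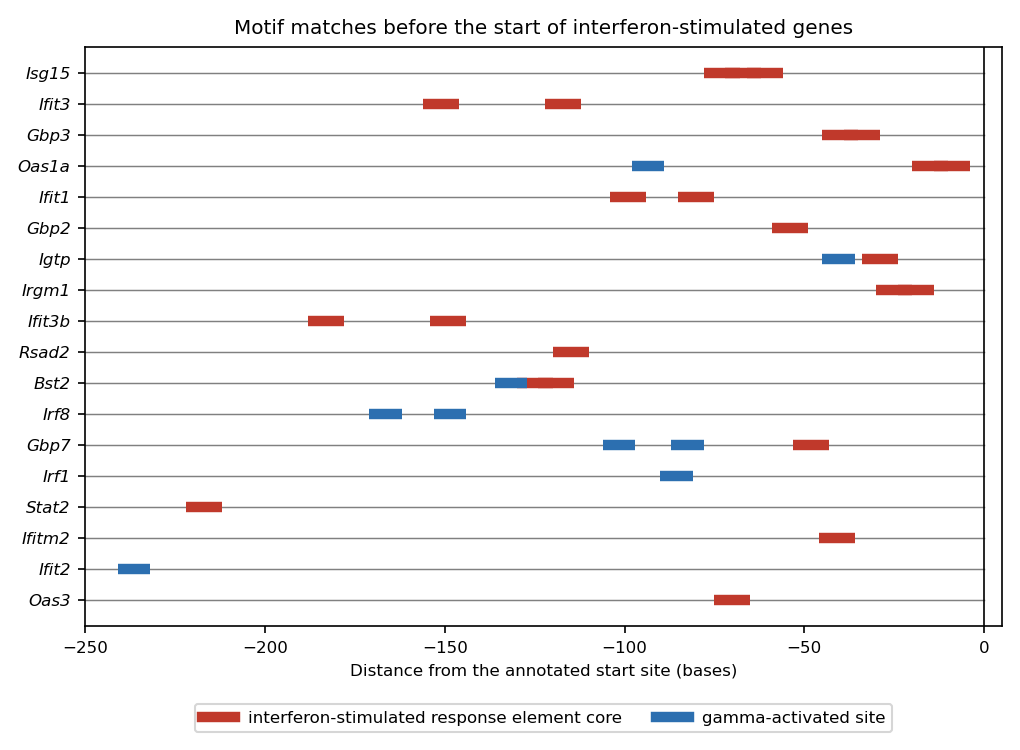
Position of motif matches in the 250 bases before the annotated start of 18 interferon-stimulated genes that hold at least 1, with the response element core in red and the gamma-activated site in blue. The horizontal axis is the distance from the start in bases, and 10 of the 15 genes with a response element core have one within 100 bases of it.

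Isg15, a ubiquitin-like protein that is attached to other proteins during the response, lies at chr4:156199424-156200818 of GRCm38 on the minus strand. It stood at 49.6, 13.2 and 50.2 FPKM in KO1 to KO3, against 1.02, 2.39, 2.43 and 0.710 FPKM in WT1 to WT4. KO1 and KO3 were about equal, KO2 lay well below them, and the groups did not overlap, since KO2 was still 5.41 times the highest WT library. The means were 37.7 ± 21.2 FPKM in KO-labelled libraries and 1.64 ± 0.900 FPKM in WT (log2 difference 3.72, SE 0.45, adjusted p = 0.0033, 95% interval 2.70 to 4.74). Usp18, the protease that takes ISG15 off its targets and also damps the type I receptor, had 4.22, 1.89 and 6.62 FPKM in KO1 to KO3, against 0.241, 0.891, 0.501 and 0.375 FPKM in WT1 to WT4. The groups were again apart, with WT2 the highest of the WT libraries, and Usp18 rose (log2 difference 1.71, SE 0.30, adjusted p = 0.00755). The ratio of Isg15 to Usp18 within a library was 6.95 to 11.8 in KO-labelled libraries and 1.89 to 4.85 in WT. This pair was set side by side after the values were seen, so no test is given.

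The IFIT proteins bind foreign RNA and hold back its translation, and their genes lie side by side on chromosome 19. Ifit3 (chr19:34583531-34588731) stood at 8.19, 2.08 and 9.73 FPKM in KO1 to KO3, against 0.0552, 0.357, 0.569 and 0.208 FPKM in WT1 to WT4, with no overlap of the groups, and rose (log2 difference 2.39, SE 0.38, adjusted p = 0.00639). Ifit3b (chr19:34607970-34613401) stood at 2.83, 0.786 and 3.37 FPKM in KO1 to KO3, against 0.110, 0.171, 0.334 and 0 FPKM in WT1 to WT4, and rose in the same pattern (log2 difference 1.44, SE 0.29, adjusted p = 0.0113). The 2 are close copies between which reads could be split, so the level of each is uncertain. Ifit1 (chr19:34640871-34650009) stood at 6.37, 0.905 and 5.87 FPKM in KO1 to KO3, against 0.0868, 0.660, 0.249 and 0.177 FPKM in WT1 to WT4. KO2 was close to WT2 there, and the rise (log2 difference 1.85, SE 0.43, adjusted p = 0.0176) was not called without KO1 (adjusted p = 0.0706) or without KO3 (adjusted p = 0.0614). Ifit3, Ifit3b and Ifit1 all had WT means under 1 FPKM and passed the filter only through KO-labelled values, so their calls are no support. Ifit2 (chr19:34550694-34576419) did not pass the filter and stood at 2.47, 0.802 and 0.354 FPKM in KO1 to KO3, against 0.455, 0.545, 0.511 and 0.272 FPKM in WT1 to WT4. Only KO1 and KO2 were above the WT libraries, and KO3 lay within their range.

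OAS enzymes make short oligoadenylates on contact with double-stranded RNA, which switch on the nuclease RNase L. Oas1a (chr5:120896256-120907521) stood at 4.77, 2.06 and 6.24 FPKM in KO1 to KO3, against 0.244, 0.401, 0.424 and 0.337 FPKM in WT1 to WT4 and rose (log2 difference 1.90, SE 0.26, adjusted p = 0.00424), with wide separation of the groups. It belongs to a cluster of close copies, between which reads could be split. Oasl2, an OAS-like protein, stood at 11.4, 3.999 and 15.3 FPKM in KO1 to KO3, against 0.435, 4.55, 1.89 and 0.472 FPKM in WT1 to WT4. WT2 was above KO2 there, the groups overlapped, and the rise (log2 difference 2.05, SE 0.53, adjusted p = 0.024) was not called without WT3 (adjusted p = 0.0501), KO1 (0.087) or KO3 (0.0831). The other 3 did not pass the filter. Oas2 averaged 1.51 ± 0.713 FPKM in KO-labelled libraries and 0.158 ± 0.125 FPKM in WT and Oasl1, which in mouse restrains Irf7 translation, 1.26 ± 0.599 FPKM in KO-labelled libraries and 0.435 ± 0.137 FPKM in WT, both without overlap of the groups. Oas3 averaged 0.311 ± 0.214 FPKM in KO-labelled libraries and 0.107 ± 0.0397 FPKM in WT, with KO2 inside the WT range.

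Bst2, or tetherin, which holds budding viruses at the cell surface, was among the most abundant members in WT. It stood at 270.4, 159 and 264 FPKM in KO1 to KO3, against 125, 135, 111 and 102 FPKM in WT1 to WT4 and rose (log2 difference 0.93, SE 0.19, adjusted p = 0.0117), a ratio of means of 1.95. Rsad2, or viperin, an enzyme that makes a chain terminator of viral RNA synthesis, stood at 2.63, 1.08 and 2.83 FPKM in KO1 to KO3, against 0.147, 0.565, 0.325 and 0.1003 FPKM in WT1 to WT4 and rose (log2 difference 1.27, SE 0.24, adjusted p = 0.00907). Both had separate groups, but Rsad2 was under 1 FPKM in every WT library. Mx2, a dynamin-like antiviral GTPase whose gene GENCODE lists as a polymorphic pseudogene, stood at 2.35, 1.35 and 2.58 FPKM in KO1 to KO3, against 0.224, 1.32, 0.700 and 0.124 FPKM in WT1 to WT4. KO2 was barely above WT2, and its rise (log2 difference 0.995, SE 0.27, adjusted p = 0.0285) was not called without any 1 of WT1, WT3, WT4, KO1 or KO3 (adjusted p = 0.0539, 0.0579, 0.0569, 0.0996 and 0.0931). Mx1, its neighbour on chromosome 16, averaged 0.293 ± 0.240 FPKM in KO-labelled libraries and 0.0531 ± 0.0439 FPKM in WT, with WT3 listed at 0, and did not pass the filter.

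The IFITM proteins sit in membranes and hinder fusion of viruses with the cell, and the 3 genes are neighbours on chromosome 7. Ifitm3 (chr7:141009586-141010770) stood at 155, 55.1 and 137 FPKM in KO1 to KO3, against 14.1, 25.5, 17.9 and 11.9 FPKM in WT1 to WT4. KO1 and KO3 were far above, KO2 was 2.16 times the highest WT library, and Ifitm3 rose (log2 difference 2.59, SE 0.36, adjusted p = 0.00424). Ifitm2 (chr7:140954837-140955987) stood at 164, 106 and 138 FPKM in KO1 to KO3, against 118, 128, 115 and 99.5 FPKM in WT1 to WT4. It was abundant in all libraries with overlapping groups and was not called (log2 difference 0.22, SE 0.15, adjusted p = 0.308, 95% interval -0.13 to 0.57). Ifitm1 (chr7:140967221-140969825) stood at 14.7, 5.05 and 8.49 FPKM in KO1 to KO3, against 3.73, 3.76, 3.57 and 2.82 FPKM in WT1 to WT4 and rose (log2 difference 1.12, SE 0.27, adjusted p = 0.0199), though not without KO3 (adjusted p = 0.0541). The ratio of Ifitm3 to Ifitm2 within a library, which does not depend on scaling, was 0.522 to 0.991 in KO-labelled libraries and 0.119 to 0.199 in WT. That pair too was chosen after its values were seen and gets no test.

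The 2 cytosolic sensors of viral RNA both rose, where 7.91% of all genes tested rose. Both had a WT mean of at least 1 FPKM, and 6.64% of all such genes rose. Ddx58, which encodes RIG-I, stood at 6.90, 5.11 and 10.6 FPKM in KO1 to KO3, against 2.03, 4.32, 3.17 and 2.36 FPKM in WT1 to WT4 (log2 difference 1.09, SE 0.25, adjusted p = 0.0165), and KO2 was close to WT2. Ifih1, which encodes MDA5, stood at 4.70, 2.13 and 5.86 FPKM in KO1 to KO3, against 1.19, 2.15, 1.53 and 1.32 FPKM in WT1 to WT4 (log2 difference 0.98, SE 0.26, adjusted p = 0.0258), and KO2 lay just below WT2. Ddx58 was not called without KO1 (adjusted p = 0.0518), and Ifih1 lost its call when WT3 (0.0622), WT4 (0.0531), KO1 (0.0967) or KO3 (0.0837) was left out. With no filter neither Ddx58 (0.0643) nor Ifih1 (0.0922) was called, and Ifih1 was not called with the replicate block (0.0799).

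Of the 5 transcription factors 3 rose, where 7.91% of all genes tested rose. Irf8 had a WT mean under 1 FPKM and passed the filter only through KO-labelled values, so its call is no support. Among the 4 with a WT mean of at least 1 FPKM 2 rose, against 6.64% of all such genes. Irf7, which drives the transcription of type I interferon genes, stood at 16.4, 6.09 and 22.2 FPKM in KO1 to KO3, against 1.87, 3.61, 3.58 and 2.85 FPKM in WT1 to WT4 (log2 difference 1.86, SE 0.36, adjusted p = 0.0101), and KO2 was above every WT library. Irf9, the DNA-binding part of the type I complex, stood at 12.2, 7.23 and 13.4 FPKM in KO1 to KO3, against 4.28, 6.28, 4.97 and 4.86 FPKM in WT1 to WT4 (log2 difference 0.94, SE 0.20, adjusted p = 0.0122), and was not called without KO1 (adjusted p = 0.0527). Stat2, its partner, stood at 6.79, 3.77 and 7.94 FPKM in KO1 to KO3, against 3.92, 5.84, 5.07 and 3.46 FPKM in WT1 to WT4, with KO2 inside the WT range, and was not called (log2 difference 0.33, SE 0.23, adjusted p = 0.298, 95% interval -0.18 to 0.85), but was without KO2 (adjusted p = 0.0492). The ratio of Irf9 to Stat2, chosen after its values were seen, was 1.69 to 1.92 in KO-labelled libraries and 0.979 to 1.40 in WT. Irf8, a factor of myeloid and B cell development, stood at 2.40, 1.79 and 2.71 FPKM in KO1 to KO3, against 0.979, 0.806, 1.03 and 0.617 FPKM in WT1 to WT4 and rose (log2 difference 0.82, SE 0.15, adjusted p = 0.00884). Irf1, an activator of interferon gamma targets that many stimuli induce, stood at 26.4, 18.5 and 24.7 FPKM in KO1 to KO3, against 22.9, 13.97, 14.6 and 12.9 FPKM in WT1 to WT4. WT1 stood apart from the other WT libraries and above KO2, and Irf1 was not called (log2 difference 0.52, SE 0.20, adjusted p = 0.0808), but was without WT1 (adjusted p = 0.0148) or KO2 (0.0496).

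The immunity-related GTPases and guanylate-binding proteins, which attack the vacuoles of intracellular pathogens and respond mostly to interferon gamma, rose in 5 of 6 tested genes. Of all genes tested 7.91% rose. Iigp1 and Gbp3 had WT means under 1 FPKM and passed the filter only through KO-labelled values, so their calls are no support. Among the 4 with a WT mean of at least 1 FPKM 3 rose, against 6.64% of all such genes. Iigp1 stood at 14.1, 3.08 and 8.33 FPKM in KO1 to KO3, against 0.247, 0.629, 0.592 and 0.718 FPKM in WT1 to WT4 (log2 difference 2.44, SE 0.37, adjusted p = 0.00547). Igtp stood at 9.06, 3.59 and 7.92 FPKM in KO1 to KO3, against 1.29, 1.41, 1.98 and 0.834 FPKM in WT1 to WT4 (log2 difference 1.67, SE 0.27, adjusted p = 0.00656), and Irgm1, a regulator of the other GTPases, at 23.1, 8.61 and 25.6 FPKM in KO1 to KO3, against 4.81, 6.61, 5.39 and 3.79 FPKM in WT1 to WT4 (log2 difference 1.60, SE 0.33, adjusted p = 0.0115). In each of these 3 the groups were apart, KO1 or KO3 was highest and KO2 lowest of the KO-labelled libraries. The Gbp genes share a cluster on chromosome 3. Gbp2 stood at 14.9, 5.69 and 9.01 FPKM in KO1 to KO3, against 1.86, 3.01, 1.48 and 1.53 FPKM in WT1 to WT4 (log2 difference 1.81, SE 0.28, adjusted p = 0.00572), and Gbp3 at 9.81, 3.19 and 9.58 FPKM in KO1 to KO3, against 0.617, 1.25, 1.46 and 0.313 FPKM in WT1 to WT4 (log2 difference 2.08, SE 0.35, adjusted p = 0.00703). Gbp7 stood at 2.40, 1.25 and 3.47 FPKM in KO1 to KO3, against 0.703, 1.54, 1.34 and 0.888 FPKM in WT1 to WT4, with KO2 inside the WT range, and was not called (log2 difference 0.63, SE 0.24, adjusted p = 0.0846), but was without KO2 (adjusted p = 0.0226). The row of Gbp5/Gbp2b averaged 0.892 ± 0.427 FPKM in KO-labelled libraries and 0.132 ± 0.0893 FPKM in WT and did not pass the filter, although its groups were apart. Gbp genes are similar in sequence, so reads may have been split between them.

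Ifi27l2a and Ifi27 are neighbours on chromosome 12 and encode small hydrophobic proteins. Ifi27l2a (chr12:103442167-103443680) stood at 102, 19.98 and 52.4 FPKM in KO1 to KO3, against 2.83, 3.56, 3.53 and 1.29 FPKM in WT1 to WT4, which was the largest log2 difference of all genes tested (log2 difference 3.73, SE 0.47, adjusted p = 0.00357, 95% interval 2.67 to 4.79). KO1 was the highest here and KO2 far below it. Ifi27 (chr12:103434211-103440239) was well expressed in WT already and stood at 112, 64.4 and 136 FPKM in KO1 to KO3, against 26.04, 49.9, 35.2 and 27.8 FPKM in WT1 to WT4 (log2 difference 1.54, SE 0.28, adjusted p = 0.00851). Ifi44 was listed at 0 in WT1 and WT4 and stood at 3.49, 1.496 and 5.38 FPKM in KO1 to KO3, against 0.239 and 0.219 FPKM in WT2 and WT3 (log2 1.91, adjusted p = 0.00529). Xaf1, a partner of the apoptosis inhibitor XIAP, stood at 8.59, 2.65 and 8.52 FPKM in KO1 to KO3, against 0.646, 1.88, 0.720 and 0.465 FPKM in WT1 to WT4 (log2 difference 1.90, SE 0.36, adjusted p = 0.00952), with WT2 closest to the KO-labelled range. Ifi35 stood at 10.8, 4.41 and 12.9 FPKM in KO1 to KO3, against 3.17, 4.94, 3.99 and 2.78 FPKM in WT1 to WT4 (log2 difference 1.05, SE 0.30, adjusted p = 0.0354). KO2 lay below WT2 there, and Ifi35 was not called without any 1 of WT1, WT3, WT4, KO1 or KO3 (adjusted p = 0.065, 0.0702, 0.0741, 0.126 and 0.115).

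Markers of other cells differed between the same libraries. In bulk RNA more cells of a type and more RNA per cell cannot be told apart. Rises were 7.91% and falls 16.7% of all genes tested. A marker under 1 FPKM in WT that passed the filter only through KO-labelled values had to have a higher mean in KO-labelled libraries, so its call is no support. Of 14 tested markers of macrophages and monocytes (18 listed) 13 rose, with a summed level of 80.03 to 171 FPKM in KO-labelled libraries and 29.01 to 51.7 FPKM in WT, and none of the 18 was at 0 in every library. Of the 14, 4 passed only in that way, and 9 of the 10 with a WT mean of at least 1 FPKM rose. Macrophage and monocyte rises numbered 10 without KO1 and 11 without KO3. The pan-leukocyte gene Ptprc was low, at 0.793 ± 0.245 FPKM in KO-labelled libraries and 0.339 ± 0.129 FPKM in WT, and the macrophage gene Csf1r averaged 2.76 ± 0.796 FPKM in KO-labelled libraries and 0.764 ± 0.282 FPKM in WT. Endothelial markers rose in 12 of 12 tested genes (of 17 listed), at 58.4 to 88.4 FPKM in KO-labelled libraries and 13.3 to 29.7 FPKM in WT. Of these, 5 passed only through KO-labelled values, which leaves 7 of 7. Surface epithelium markers rose in 8 of 8, at 62.2 to 127 FPKM in KO-labelled libraries and 30.03 to 39.3 FPKM in WT, of which 1 passed only through KO-labelled values. Surface epithelium rises numbered 6 of 8 without KO1, without KO3, with the replicate block and with no filter. Of 8 tested smooth muscle and pericyte markers 5 rose, at 134 to 384 FPKM in KO-labelled libraries and 60.7 to 111 FPKM in WT, and 3 did so without each of WT3, WT4, KO1 and KO3. Of the 8, 2 passed only through KO-labelled values, and 4 of the other 6 rose. Erythroid markers rose in 5 of 5, at 3021 to 4771 FPKM in KO-labelled libraries and 1051 to 2675 FPKM in WT, and in 3 without each of WT3, KO1 and KO3. Lymphocyte and NK markers summed to 3.73 to 6.90 FPKM in KO-labelled libraries and 2.39 to 3.18 FPKM in WT, with 1 of 13 tested and not called. Neutrophil markers summed to 1.65 to 3.94 FPKM in KO-labelled libraries and 0.883 to 3.10 FPKM in WT, with 1 of 8 tested, which passed only through KO-labelled values and was not called, and Elane at 0 throughout. Of the plasmacytoid dendritic list, whose cells are a strong source of type I interferon, 2 of 5 were tested and Klk1 was called, having passed only through KO-labelled values, while its defining gene Siglech averaged 0.116 ± 0.0218 FPKM in KO-labelled libraries and 0.0451 ± 0.0316 FPKM in WT. Theca markers rose in 3 and fell in 1 of 6, at 152 to 289 FPKM in KO-labelled libraries and 78.3 to 140.3 FPKM in WT, and rose in 2 without KO1 or without KO3. Of 8 oocyte markers 1 rose, at 559.9 to 658 FPKM in KO-labelled libraries and 379 to 649 FPKM in WT, and 0 did so without each of WT2, WT3, WT4, KO1, KO2 and KO3. Granulosa markers fell in 7 of 13 and rose in 0, at 3340.5 to 4794 FPKM in KO-labelled libraries and 5283 to 7409.8 FPKM in WT, with 4 falls without KO1 and 3 without WT3. Granulosa falls numbered 11 after equal-sum scaling and, where no filter was used, 2. With no filter, rises numbered 2 of 11 smooth muscle and pericyte markers, 2 of 7 erythroid, 2 of 13 lymphocyte and NK and 0 of 8 oocyte markers. With the replicate block 3 smooth muscle and pericyte markers rose, and the oocyte marker was called neither there, nor after equal-sum scaling, nor after the length correction. Where the mean had to reach 5 FPKM, rises numbered 5 of 6 macrophage and monocyte, 3 of 3 endothelial, 5 of 5 surface epithelium and 3 of 3 smooth muscle and pericyte markers.

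Library by library, the interferon-stimulated genes and the macrophage markers had the same order among KO-labelled libraries but not among WT. Their medians relative to the WT mean, on the log2(FPKM + 1) scale, were 1.82, 0.71 and 1.93 in KO1 to KO3 for the interferon-stimulated genes, and 1.68, 0.82 and 1.82 for the macrophage markers. In WT1 to WT4 they were -0.18, 0.30, 0.10 and -0.21 for the interferon-stimulated genes, and 0.29, 0.00685, -0.0700 and -0.22 for the macrophage markers. WT2 was the highest WT library for the interferon-stimulated genes and WT1 for the macrophage markers. For endothelial markers WT2 was the highest, at 0.35, and KO2 the lowest of the KO-labelled libraries, at 1.02. From the top, the interferon-stimulated genes had the WT order WT2, WT3, WT1 and WT4. Endothelial, smooth muscle and pericyte, and surface epithelium markers had this order too, but for them KO1 and not KO3 was the highest KO-labelled library. The erythroid, theca, oocyte and granulosa lists had other WT orders. The summed level of the 37 genes was 518 to 1090.0 FPKM in KO-labelled libraries and 289 to 417 FPKM in WT, most of it from Bst2, Ifitm2, Ifitm3 and Ifi27. The part of these other cells in the differences was not tested.

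**Figure D4:**
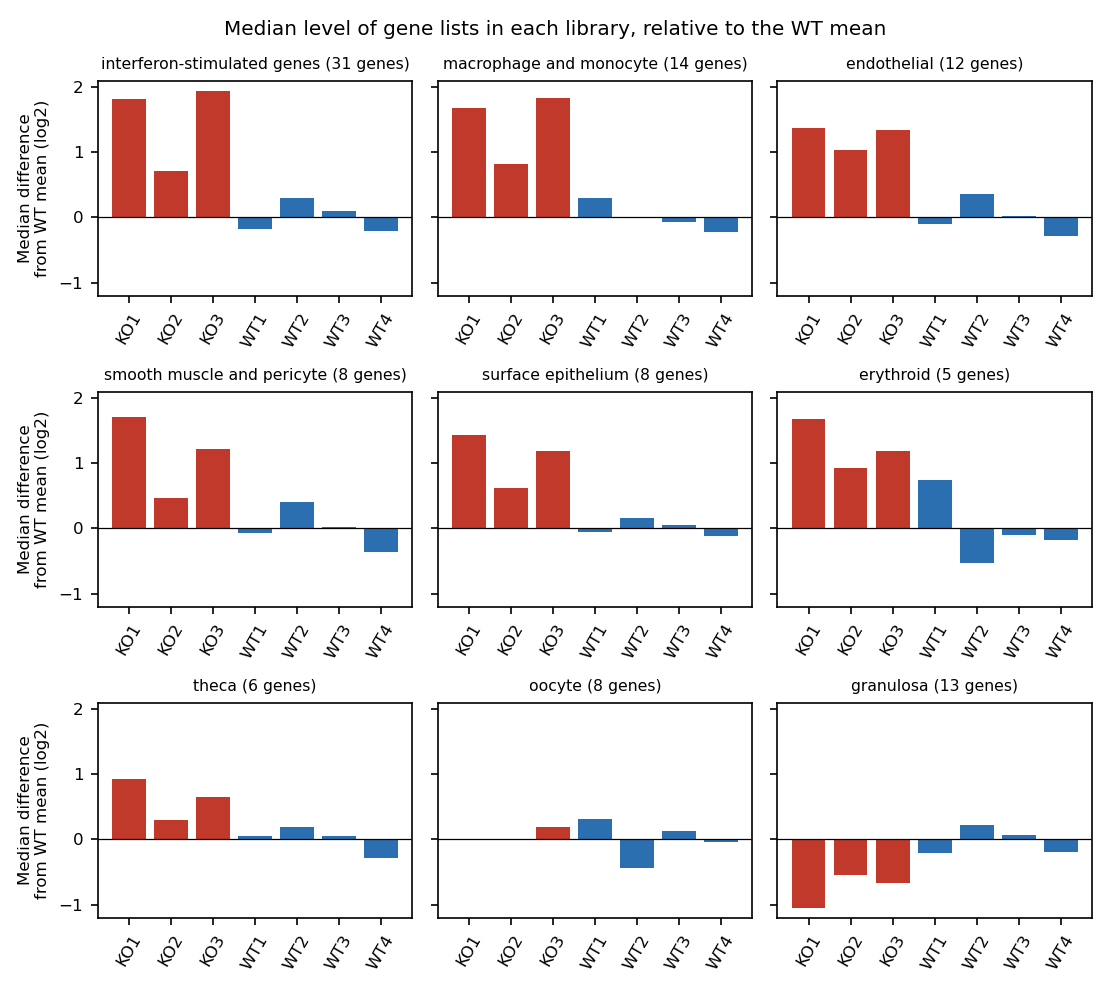
Median over the tested genes of each list of the difference from the WT mean in log2(FPKM + 1), 1 bar per library, with KO-labelled libraries in red left of WT libraries in blue. KO2 has the smallest KO-labelled bar for the interferon-stimulated genes and for the macrophage, endothelial, smooth muscle, epithelial, erythroid and theca lists, and the granulosa bars of all KO-labelled libraries lie below 0.

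Interferon transcripts themselves were almost absent from the table. Of 21 ligand symbols 17 were listed at 0 in every library, Ifnb1 and Ifng among them. Ifna12, Ifnk, Ifnl3 and Ifnz had a value above 0 in some library, and the highest group mean was 0.0710 FPKM, for Ifnl3 in KO-labelled libraries, which was listed at 0 in all WT libraries. No ligand passed the filter. Their absence from the cells is not shown by this, since the depth is unknown.

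Receptor and signalling genes moved in both directions. Of 26 tested upstream genes of 52 listed, 5 rose and 2 fell, with a median log2 difference of 0.17, against shares of 7.91% and 16.7% among all genes tested. Ifnar1, a chain of the type I receptor, fell, at 10.2, 11.5 and 12.4 FPKM in KO1 to KO3, against 15.2, 21.2, 15.4 and 15.2 FPKM in WT1 to WT4 (log2 difference -0.51, SE 0.13, adjusted p = 0.0261), and KO-labelled and WT libraries did not overlap. Ifnar2, its partner chain, averaged 13.8 ± 2.91 FPKM in KO-labelled libraries and 11.3 ± 1.01 FPKM in WT and was not called (log2 0.25, adjusted p = 0.204), nor were the interferon gamma receptor chains Ifngr1 (log2 -0.20, adjusted p = 0.318) and Ifngr2 (log2 -0.31, adjusted p = 0.0781). Of the kinases, Jak1 fell, at 85.5 ± 9.85 FPKM in KO-labelled libraries and 121 ± 15.7 FPKM in WT (log2 difference -0.49, SE 0.13, adjusted p = 0.0277), and lost its call under median-of-ratios scaling, under upper-quartile scaling and after the length correction, while Jak2 rose, at 15.1 ± 1.60 FPKM in KO-labelled libraries and 11.5 ± 0.972 FPKM in WT (log2 difference 0.36, SE 0.11, adjusted p = 0.0369), and was not called with an equal sum of FPKM. Socs3, a feedback inhibitor of JAK signalling that other cytokines also induce, rose, at 54.3, 26.2 and 37.8 FPKM in KO1 to KO3, against 23.3, 14.5, 11.6 and 10.9 FPKM in WT1 to WT4 (log2 difference 1.33, SE 0.29, adjusted p = 0.0135). Ptpn6, a phosphatase (SHP-1) abundant in blood cells, averaged 1.86 ± 0.482 FPKM in KO-labelled libraries and 0.894 ± 0.317 FPKM in WT and was called higher (log2 0.60, adjusted p = 0.0403), but it is 1 of 2 upstream genes that were under 1 FPKM in WT and passed the filter only through KO-labelled values. Tmem173, which encodes the DNA-pathway adaptor STING, averaged 3.13 ± 0.515 FPKM in KO-labelled libraries and 1.59 ± 0.301 FPKM in WT and rose (log2 0.67, adjusted p = 0.0129). Of the other 8 tested genes for induction of interferon none was called, among them Mavs (log2 -0.15, adjusted p = 0.315), Irf3 (log2 -0.17, adjusted p = 0.155) and Mb21d1, which encodes cGAS (log2 0.27, adjusted p = 0.153). The genes not called here were named for their role, with their values known. Rises numbered 3 without WT2, 2 without WT3, 2 without WT4, 0 without KO1, 8 without KO2 and 2 without KO3, and falls 1 without WT2, 0 without WT3, 1 without WT4 and 0 without KO1. Ifnar1 lost its call without WT3 or KO1 (adjusted p = 0.056 and 0.0967). Jak1 lost its call without any 1 of WT2, WT3, WT4 and KO1 (adjusted p = 0.0673, 0.0781, 0.0614 and 0.0943). Jak2 lost its call without any 1 of WT2, WT3, WT4, KO1 and KO3 (adjusted p = 0.0843, 0.0795, 0.0633, 0.0916 and 0.108), and with the replicate block (adjusted p = 0.0514). Among the fits without 1 library Ptpn6 kept its call only without KO2, and Socs3 and Tmem173 lost theirs without KO1 (adjusted p = 0.0513 and 0.059).

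Among other interferon-induced genes rises were called and falls were not. Of 76 listed genes 75 had a row and 53 were tested, of which 28 rose and 0 fell, with a median log2 difference of 0.71. Of all genes tested 7.91% rose and 16.7% fell. Of the 53, 15 had a WT mean under 1 FPKM and passed only through KO-labelled values. Of the 38 genes with a WT mean of at least 1 FPKM 14 rose, against 6.64% of all tested genes with such a mean. The 10 with the smallest adjusted p included Cxcl10, the chemokine that draws activated T cells, at 13.8, 4.60 and 8.35 FPKM in KO1 to KO3, against 1.49, 1.33, 0.731 and 0.521 FPKM in WT1 to WT4 (log2 difference 2.22, SE 0.31, adjusted p = 0.00426). Ube2l6, the conjugating enzyme for ISG15, averaged 9.71 ± 2.51 FPKM in KO-labelled libraries and 3.16 ± 0.755 FPKM in WT (log2 1.35, adjusted p = 0.00464), and Isg20, an RNA exonuclease, 4.91 ± 0.841 FPKM in KO-labelled libraries and 1.87 ± 0.321 FPKM in WT (log2 1.04, adjusted p = 0.00424). The GTPases Tgtp2 (log2 2.06, adjusted p = 0.00297) and Tgtp1 (log2 1.74, adjusted p = 0.00582) rose as well, as did Ifi203 (log2 1.72, adjusted p = 0.0033), Ifi204 (log2 1.73, adjusted p = 0.00424) and Ifi211 (log2 1.85, adjusted p = 0.00376), in each family similar copies between which reads may be split. Phf11d (log2 1.59, adjusted p = 0.00557) and the nuclear body protein Sp100 (log2 1.58, adjusted p = 0.00605) complete the 10. Tgtp2, Tgtp1, Ifi203, Ifi204, Ifi211 and Phf11d had WT means under 1 FPKM and passed the filter only through KO-labelled values. They had to have a higher mean in KO-labelled libraries, so their calls are no support. Antigen-processing genes of the list were mixed. Psmb8 and Psmb10, subunits of the immunoproteasome, averaged 7.28 ± 3.16 FPKM in KO-labelled libraries and 1.99 ± 0.334 FPKM in WT (log2 1.39, adjusted p = 0.00839) and 9.29 ± 2.87 FPKM in KO-labelled libraries and 4.06 ± 1.16 FPKM in WT (log2 1.01, adjusted p = 0.0186), while their companion subunit Psmb9 averaged 3.59 ± 1.83 FPKM in KO-labelled libraries and 1.46 ± 0.374 FPKM in WT and was not called (log2 0.82, adjusted p = 0.0637), with overlapping groups. Also not called were Tap1 (log2 0.46, adjusted p = 0.179), Tap2 (log2 -0.04, adjusted p = 0.835) and their regulator Nlrc5 (log2 -0.11, adjusted p = 0.766). Eif2ak2, the kinase PKR, was not called either (log2 0.44, adjusted p = 0.176, 95% interval -0.07 to 0.96). These last 7 genes were named after their values were seen.

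**Figure D5:**
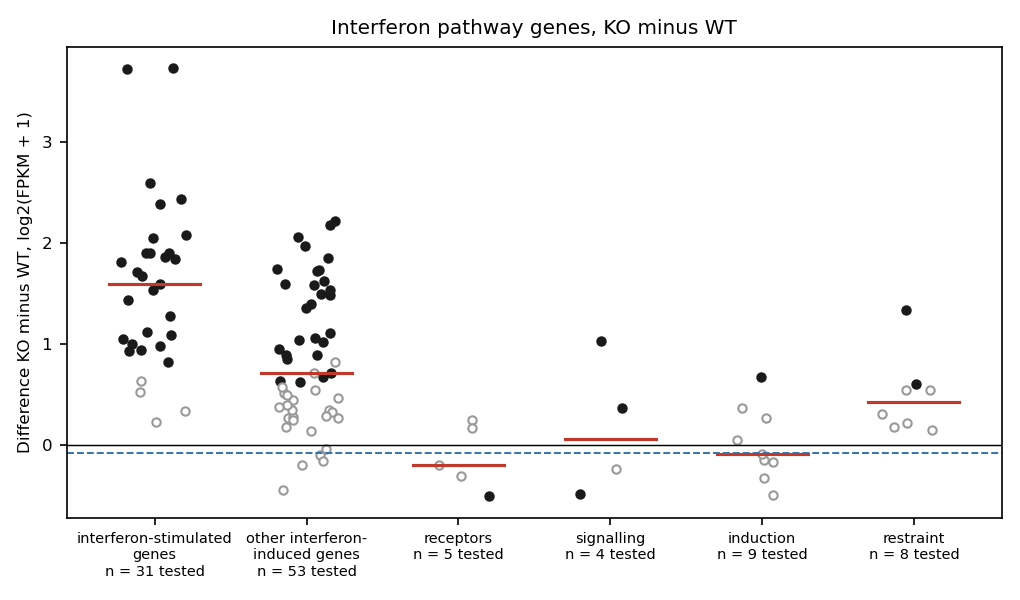
Difference KO minus WT in log2(FPKM + 1) for tested genes of the interferon pathway, filled where called and open where not, with red lines at the median of each group and the dashed line at the median of all genes tested, -0.08. The interferon-stimulated genes have a median of 1.60 and the other induced genes one of 0.71, while the medians of the upstream groups run from -0.20 for receptors to 0.42 for genes that restrain the pathway.

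Transcript length moved with the differences across the whole table and is set beside these results for that reason. In 5 equal bins of tested genes by length of the longest transcript, all genes had a median log2 difference of 0.0879 in the shortest bin, up to 1569 bases, and -0.23 in the longest, from 5055 bases. The interferon-stimulated genes had medians of 1.33, 1.71, 1.96, 1.18 and 0.80 from the shortest to the longest bin, which held 8, 9, 6, 6 and 2 of them. Isg15 (756 bases) and Ifi27l2a (463 bases) were in the shortest, and Ifih1 and Gbp7 in the longest. After the length correction 29 members rose, with a median of 1.69, and 12.1% of all genes tested rose.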

How the data were processed

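The deposited table holds 1 value per gene and library, taken as FPKM from the values, which are not whole and whose sums differ between libraries; neither the labels nor the header name the unit. According to the labels' protocols, oligo-dT selected RNA was cut to roughly 200 bp, built into NEBNext Ultra libraries and sequenced from both ends (150 bp); 2.5 µg of RNA was used. The submitters' processing notes list HISAT2, HTSeq 0.12.4, FastQC, Trimmomatic, edgeR, DESeq2 and the build mm10 without saying what each did; what made the FPKM deposited by the authors, and whether strand was used, is not given in the sources used here. Counts and depth are therefore unknown, and no counting intervals are given.

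Differences were fitted with limma 3.58.1 in R 4.3.3 (mean-variance trend) on log2(FPKM + 1), which understates changes of genes near or below 1 FPKM, for genes averaging 1 FPKM or more. Intervals are 95%. The same code was tested on simulated data. Coordinates and lengths are from GENCODE release M21 (GRCm38), which held 42456 of 50095 IDs. The alternatives were a pseudocount of 0.1, no filter, a mean of at least 5 FPKM, 3 scalings, a length correction (lowess, span 0.3), a replicate block and leaving out single libraries. Listed genes with no row under their symbol were matched by GENCODE ID (8 rows). Named were all genes of the list, called upstream genes, the 10 other induced genes of smallest adjusted p, and ligands above 0; 1 called upstream gene is counted but not reported here by name. Protein sequences were not used here. The members and lists were chosen with earlier results of these data known.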

Additional observations from a re-analysis of the deposited data

Results flagged for a closer look

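In the 4 WT libraries Irf1, an activator of interferon gamma target genes, stood at 22.9 FPKM in WT1, far from the others at 13.97, 14.6 and 12.9 FPKM in WT2 to WT4. The gap to the nearest library, divided by the range of the group, passed Dixon's critical value for a group of 4. Of 37 genes examined this way 1 passed, and about 1 in 20 groups does so by chance. The macrophage markers were also highest in WT1 among WT libraries, at a summed 51.7 FPKM against 29.01 to 35.8 FPKM in the others, and their part in the Irf1 value was not tested.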

How the results depend on the processing

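Of the 27 genes that rose, 18 were called in every alternative that tested them, and none of the 444 alternative values over the 31 tested genes changed sign. Rises numbered 12 of 15 tested where the mean had to reach 5 FPKM, against 7.98% of all genes tested there. They numbered 15 where the WT mean had to reach 1 FPKM. With no filter 20 of 37 rose: Oas2 and Gbp5/Gbp2b were added, and Ifit1, Oasl2, Mx2, Ifitm1, Ifih1, Ddx58, Irf9, Ifi35 and Irgm1 (adjusted p = 0.0522) were not called. Leaving out 1 library gave 18 to 30, where 3.6% to 9.49% of all genes tested rose. Irf1 was called under median-of-ratios scaling (0.0498) and Irf1 (0.0492) and Gbp7 (0.0326) after the length correction. Falls of members were 0 throughout. The members' median was 2.19 at the pseudocount 0.1 and 1.46 after scaling to an equal sum, where the median of all genes moved to -0.21. Calls over all genes numbered 1865 with no filter, and rises 685 with a mean of at least 5 FPKM. Leaving out 1 library gave 1293 to 3369 calls and 497 to 1316 rises. Upstream rises were 2 with no filter, 3 with an equal sum of FPKM, 10 with the length correction and 0 to 8 without 1 library, and upstream falls 0 with no filter, 1 with median-of-ratios scaling, 1 with upper-quartile scaling, 4 with an equal sum of FPKM, 1 with the length correction and 0 to 2 without 1 library. Other induced genes rose in 6 with a mean of at least 5 FPKM, and falls were 1 after equal-sum scaling and 0 to 1 without 1 library. The cause of these shifts was not tested. With the replicate block 22 members and 1 upstream gene rose, and 6.65% of all genes tested did. Same-numbered libraries did not all deviate together (r = 0.193, -0.111 and 0.0708), so the numbers are not taken to pair them.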
